A study of Mus musculus with 24 samples.

Results

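The enterocyte digestion and absorption genes are 30 genes that absorptive cells of the small intestine use to break down and take up food, out of 55421 genes in the count table. They were chosen by symbol, and each symbol matched 1 Ensembl gene. RNA was sequenced from sorted crypt cells of 8 tamoxifen-treated mice, in a study of whether the histone H3K4 methyltransferase SETD1A is needed for intestinal homeostasis. The 4 hom animals (BN45, BO25, BO57 and BP04) were Setd1aFC/FC, which the authors call knockout, and the 4 het animals (BN44, BO27, BO58 and BP03) were Setd1aFC/+, which they call control. Both genotypes carried the Lgr5-eGFP-CreERT2 allele and received 1 mg of tamoxifen on each of 3 days, with tissue collected on day 4 following induction. Each animal gave 1 library of Paneth cells, 1 of transit-amplifying (TA) cells and 1 of stem cells, so the 6 groups hold 4 libraries each, and libraries of different fractions share animals. Cre was expressed from Lgr5, a gene of crypt base stem cells, so recombination starts in the stem cell compartment. No animal without tamoxifen or without Cre was analysed here, and the animals' ages are not given in the sources used here. Values of 4 libraries are listed below in the animal order just given.

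Stem cells at the crypt base divide into TA cells, which differentiate while they move up to the villus, and enterocytes are the most common product. Enterocytes carry a brush border of microvilli that holds sugar and peptide digesting enzymes and transporters, and they pack absorbed fat with apolipoproteins into chylomicrons. Many of the genes depend in mouse intestine on the transcription factors HNF4, HNF1 and CDX2. Paneth cells, the antimicrobial cells of the crypt base, and stem cells are not absorptive, so transcripts of this set in their fractions are read here library by library. In bulk libraries, a smaller number of enterocyte-type cells and less RNA of a gene per cell cannot be told apart.

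Sequences before a RefSeq start are shown for 4 members that stand for the 2 patterns described below. Sis and Fabp1 were high in 2 het stem libraries, and Cdhr5 and Slc6a19 had their highest levels in the Paneth fraction. The RefSeq promoter table of build GRCm38.p6 held 27 of the 30 members, and each sequence below is the 250 bases before the annotated start, written 5′ to 3′ on the strand of the gene. For Slc6a19 this start lies inside the gene as counted (chr13:73679745-73704865), so its window is not upstream of the counted gene. The Fabp1 window runs past the start of the gene as counted (chr6:71199827-71205023), so its last bases lie inside that gene. Capitals mark the letters GTTAAT (part of an HNF1 site), CAAAGTC (part of an HNF4 site) and TTTATG (a CDX2-type core), each searched on both strands.
Sis, chr3:72967864-72968113, minus strand: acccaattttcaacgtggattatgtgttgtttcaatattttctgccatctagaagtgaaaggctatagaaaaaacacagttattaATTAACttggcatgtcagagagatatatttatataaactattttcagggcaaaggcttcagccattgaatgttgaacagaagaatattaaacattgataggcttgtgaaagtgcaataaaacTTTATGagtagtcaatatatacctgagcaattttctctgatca
Fabp1, chr6:71199629-71199878, plus strand: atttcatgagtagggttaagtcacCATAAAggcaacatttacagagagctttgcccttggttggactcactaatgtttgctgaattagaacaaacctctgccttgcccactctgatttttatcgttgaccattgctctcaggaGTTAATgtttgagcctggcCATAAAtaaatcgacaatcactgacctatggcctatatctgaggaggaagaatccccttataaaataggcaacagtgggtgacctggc
Cdhr5, chr7:141276787-141277036, minus strand: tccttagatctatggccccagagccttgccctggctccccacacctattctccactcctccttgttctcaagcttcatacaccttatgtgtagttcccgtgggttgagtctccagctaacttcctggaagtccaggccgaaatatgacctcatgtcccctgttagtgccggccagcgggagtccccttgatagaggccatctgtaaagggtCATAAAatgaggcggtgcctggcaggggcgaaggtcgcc
Slc6a19, chr13:73692637-73692886, minus strand: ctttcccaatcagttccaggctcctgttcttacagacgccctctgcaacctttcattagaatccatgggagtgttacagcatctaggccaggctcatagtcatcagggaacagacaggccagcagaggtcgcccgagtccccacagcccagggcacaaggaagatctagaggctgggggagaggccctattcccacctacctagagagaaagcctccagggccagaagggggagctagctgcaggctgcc
GTTAAT was found in 3 of the 27 member promoters (Fabp1, Sis and Cdhr2) and in 7.5% of 27018 genes with a promoter of that length. CAAAGTC was found in 4 members (Rbp2, Treh, Alpi and Cdhr2), against 4.3% of all genes, and TTTATG in 4 (Fabp1, Sis, Lct and Cdhr5), against 12.4%. Sis and Fabp1 held both GTTAAT and TTTATG, and Cdhr5 held TTTATG. Slc6a19 held none of the letters searched, in a window that lies inside the counted gene. A match is a description of letters and not a binding site.

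Libraries held 24.73 to 47.05 M counts. Setd1a was at 4.2 to 7.73 CPM (a gene's share of all counts of its library) in hom stem libraries and at 4.85 to 8.2 CPM in het stem libraries, but these counts cover the whole gene and do not check the deletion. The stem and Paneth fractions carried their defining markers. 15 stem markers summed to 36033 to 53243 CPM in hom stem and 30958 to 42953 CPM in het stem libraries. 13 Paneth markers summed to 180509 to 463377 CPM in hom Paneth and 83505 to 357340 CPM in het Paneth libraries. No marker list of TA cells was used. Against stem libraries, 13 of the 15 stem markers in hom and 14 in het animals were lower in TA by edgeR, where 2.03% and 2.69% of all genes were. Of 10 proliferation markers, 0 passed between TA and stem libraries in either genotype (median log2 fold change -0.02 in hom and 0.07 in het animals). Other cell types were present too. 10 goblet markers summed to 6000 to 16309 CPM in hom TA and 7584 to 19356 CPM in het TA libraries, and 12 tuft markers to 2414 to 7498 CPM in hom Paneth and 3777 to 9506 CPM in het Paneth libraries. Each animal is 1 replicate, and differences were tested with the quasi-likelihood F test of edgeR at a Benjamini-Hochberg adjusted p below 0.05 over all genes that passed the filter on low counts. Levels of different genes are compared only as CPM per kilobase of exon.

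Per kilobase, the set was led by 3 short transcripts. Averaged over the 24 libraries, Fabp2 (intestinal fatty acid binding protein) was at 421 CPM per kb, Prap1 (proline-rich acidic protein 1, a secreted protein of the gut epithelium) at 403 and Fabp1 (liver-type fatty acid binding protein) at 364. Rbp2, the cytosolic retinol binding protein of enterocytes, came next at 80.1 CPM per kb, and Nt5e, the ecto-5′-nucleotidase CD73, was lowest at 0.283. The order differed between fractions. Fabp1 was first in Paneth libraries at 562 ± 416 CPM per kb (SD, n = 8 libraries of both genotypes), Fabp2 in TA libraries at 708 ± 190, and Prap1 in stem libraries at 407 ± 142. Neighbours in that order overlapped widely: Prap1 and Fabp2 in TA libraries (683 ± 229 and 708 ± 190 CPM per kb) and Fabp2 and Prap1 in stem libraries (336 ± 153 and 407 ± 142) differed by less than their SDs. Summed over the 30 genes, the level was 685 to 3613 CPM in hom Paneth and 898 to 2619 CPM in het Paneth libraries. It was 2418 to 3836 CPM in hom TA and 1933 to 4007 CPM in het TA libraries, and 1286 to 1499 CPM in hom stem and 1303 to 2507 CPM in het stem libraries.

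**Figure D1:**
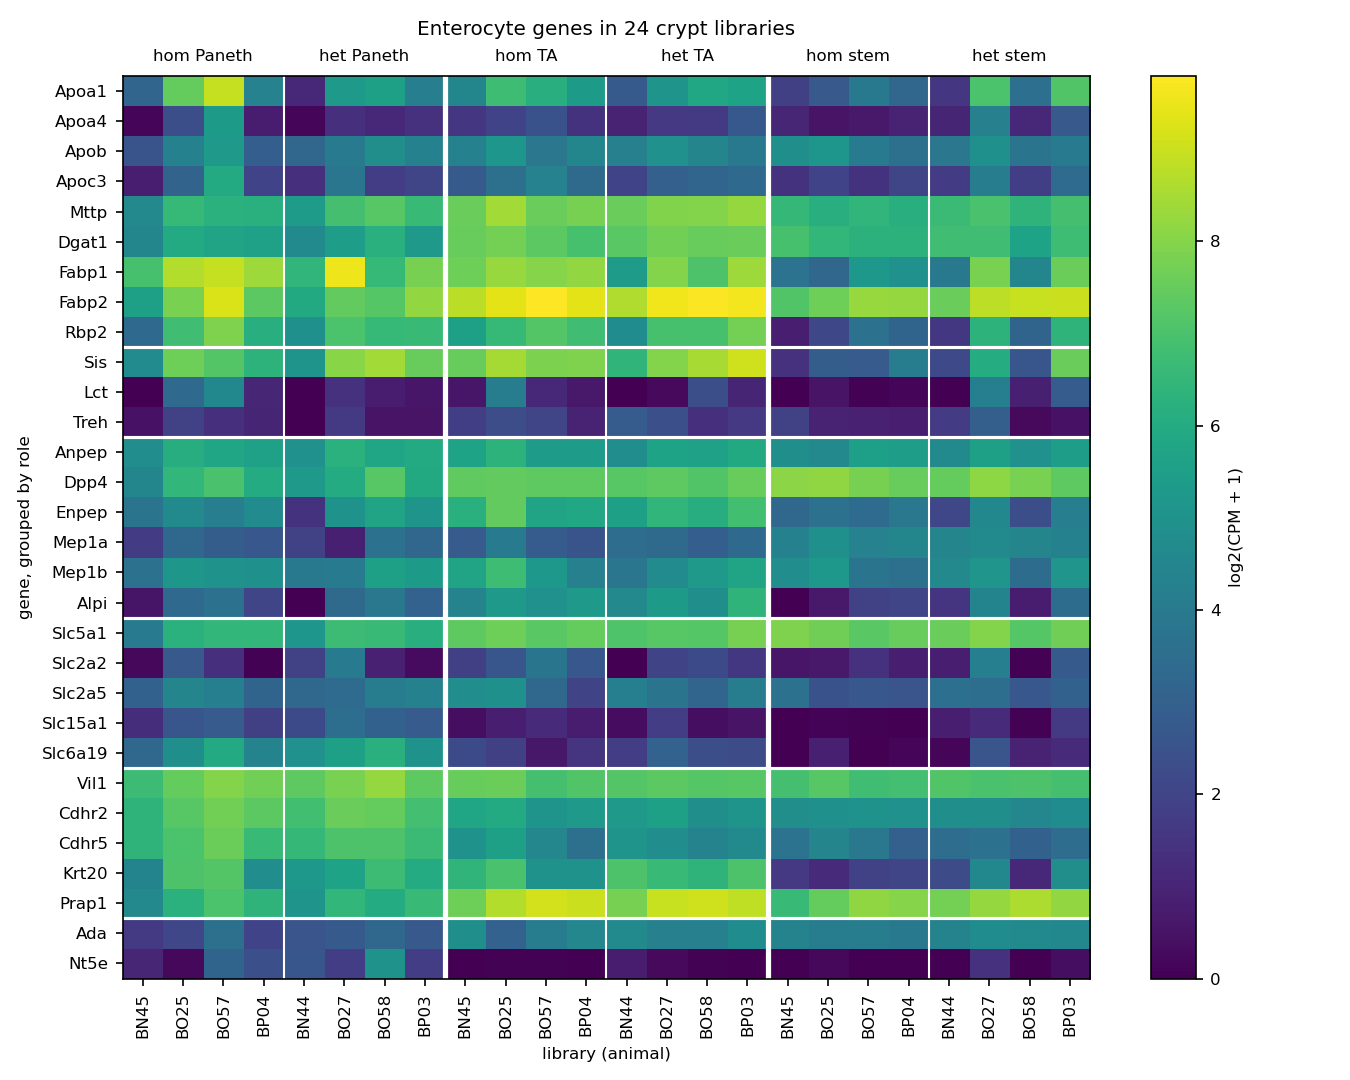
Level of each of the 30 enterocyte genes (rows, grouped by role) in each of the 24 libraries (columns, named by animal), as log2(CPM + 1) from dark (0) to yellow (high). Fabp2 and Prap1 are bright in TA libraries, Slc6a19 and Nt5e are lit in Paneth libraries, and the het stem libraries of BO27 and BP03 carry Apoa1, Fabp1, Rbp2 and Sis that the other stem libraries hold at low level.

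Stem cells of knockout and control animals were compared first, to ask whether loss of SETD1A changes absorptive genes in the cells where recombination starts. None of the 28 members tested changed between hom and het stem libraries, by edgeR at the adjusted threshold, against 0.0125% of the 16056 genes tested. Slc15a1 and Nt5e, at 0 to 2.2 CPM in stem libraries, did not pass the filter on low counts. 10 members had an unadjusted p below 0.05, where 6.73% of all genes did, and each of the 10 was lower in hom libraries. The median log2 fold change of the members was -0.45, against 0 over all genes. DESeq2 called 2 members lower in hom stem libraries, Apoa4 (adjusted p = 0.017) and Krt20 (adjusted p = 0.034), against 1.16% of all genes it tested. In 9 of the 10, Ada being the exception, the same 2 het libraries, BO27 and BP03, were above all other stem libraries.

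Apoa1, the main protein of high-density lipoprotein and a chylomicron component, had 2.62, 5.59, 14.6 and 8.28 CPM in hom stem libraries. In het stem libraries it had 1.96, 129, 10.9 and 138 CPM. The het libraries of BO27 and BP03 stood far above the other 6, and the het libraries of BN44 and BO58 lay within the hom range or just below it. The fitted log2 fold change was -3.14 ± 1.11 (SE, edgeR adjusted p = 0.61).

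Fabp1 had 12.3, 8.45, 36.6 and 29.8 CPM in hom stem libraries, against 14.4, 227, 21.4 and 190 CPM in het stem libraries. Rbp2 had 0.775, 3.33, 11.9 and 7.99 CPM in hom stem libraries, against 2.04, 79.6, 8.02 and 81.9 CPM in het stem libraries. Sucrase-isomaltase, Sis, which splits sucrose and starch products at the brush border, had 1.63, 6.33, 6.05 and 16.3 CPM in hom stem libraries, against 3.42, 65.5, 5.13 and 185 CPM in het stem libraries. In all 3 genes the same 2 het libraries were high, and the other 2 het libraries lay among the hom ones. The log2 fold changes were -2.32 ± 0.88 for Fabp1, -2.79 ± 1.12 for Rbp2 and -3.08 ± 1.2 for Sis (SE, edgeR adjusted p = 0.65, 0.69 and 0.66).

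Krt20, the keratin of differentiated intestinal epithelium, had 2.11, 1.23, 2.71 and 3.1 CPM in hom stem libraries, against 3.8, 22.8, 1.13 and 27.6 CPM in het stem libraries. Lactase, Lct, was at 0 to 0.446 CPM in hom stem libraries and at 0, 17.8, 0.813 and 6.24 CPM in het stem libraries. Slc2a2, the glucose and fructose carrier GLUT2, was at 0.508 to 1.61 CPM in hom stem libraries and at 0.765, 17.8, 0.0353 and 5.78 CPM in het stem libraries. Again BO27 and BP03 alone were high. The same holds for the apolipoproteins Apoa4 and Apoc3 and for intestinal alkaline phosphatase, Alpi, whose het values in these 2 libraries were 18.2 and 5.64, 16.2 and 9.75, and 20.6 and 10.1 CPM, against at most 1.1, 3.13 and 3.13 CPM in hom stem libraries.

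Of the members with a broad crypt level, Fabp2, Prap1, Dpp4, Slc5a1, Ada and Vil1 did not share this pattern. Mttp did by a small margin, with 124 and 118 CPM in the het stem libraries of BO27 and BP03. The other het stem libraries had at most 101 CPM of Mttp, and hom stem libraries at most 90.2 CPM. Fabp2 had 138, 196, 311 and 301 CPM in hom stem libraries, against 187, 452, 495 and 516 CPM in het stem libraries. Prap1 had 96.4, 176, 286 and 261 CPM in hom stem libraries, against 216, 304, 381 and 298 CPM in het stem libraries. For both genes 3 het libraries, BO58 among them, were above every hom library, the fourth was not, and the tests missed the threshold (log2 fold changes -0.75 ± 0.37 and -0.49 ± 0.33 SE, edgeR adjusted p = 0.78 and 0.86). Dpp4, a dipeptidyl peptidase of the brush border, had 270, 285, 220 and 182 CPM in hom stem libraries, against 176, 277, 223 and 162 CPM in het stem libraries. Slc5a1, the sodium-glucose cotransporter SGLT1, had 239, 205, 157 and 182 CPM in hom stem libraries, against 185, 252, 148 and 202 CPM in het stem libraries. Adenosine deaminase, Ada, had 20.1, 16.4, 16.6 and 14.5 CPM in hom stem libraries, against 19.7, 26.1, 24.9 and 22.7 CPM in het stem libraries. The groups overlapped in each of these 3 genes, and Vil1, the actin bundler villin, was at 111 to 152 CPM in hom and 118 to 139 CPM in het stem libraries.

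**Figure D2:**
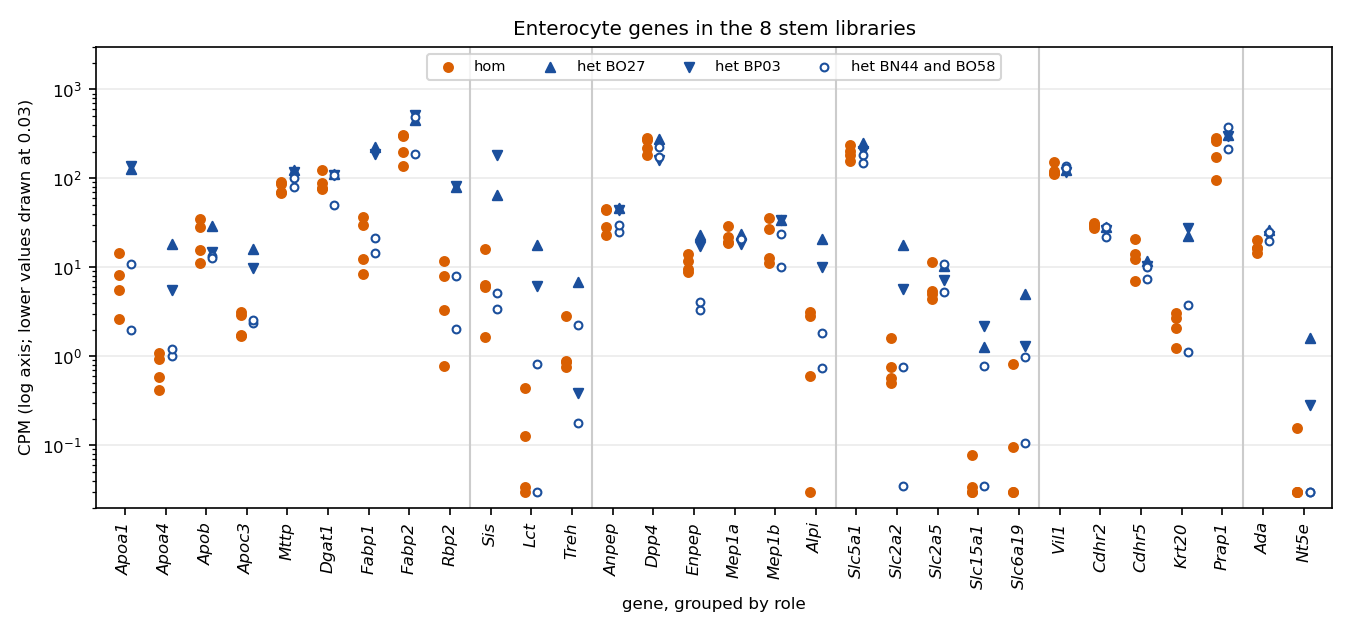
Level in CPM (vertical log axis) of the 30 enterocyte genes in the 8 stem libraries, with hom libraries as orange circles left of het libraries in blue, and the het libraries of BO27 and BP03 as filled triangles; values under 0.03 CPM are drawn at 0.03. For Apoa1, Fabp1, Rbp2, Sis, Lct and Krt20 the triangles lie above all other points, whereas for Dpp4, Slc5a1 and Vil1 the points mix.

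Without the het stem libraries of BO27 and BP03, a choice made after their values were seen, the members' median log2 fold change in hom against het stem libraries was 0.3, against 0.01 over all genes, and 18 of the 28 were positive. The log2 fold change was then 0.32 ± 0.82 for Apoa1, 0.36 ± 0.6 for Fabp1 and 0 ± 0.65 for Krt20 (SE, edgeR adjusted p = 1 for each). 1 member had an unadjusted p below 0.05, where 6.09% of all genes did. This was Enpep, the brush border aminopeptidase A, with 8.79, 11.7, 9.69 and 14.3 CPM in hom stem libraries, against 3.29 and 4.1 CPM in the het stem libraries of BN44 and BO58 (log2 fold change 1.66 ± 0.36 SE, edgeR adjusted p = 0.59). The het stem libraries of BO27 and BP03 had 22.9 and 17.4 CPM of Enpep, above every hom stem library. With them its log2 fold change was -0.05 ± 0.57 (SE). With only 2 control libraries left, the fit without BO27 and BP03 is less precise than the full one. In BO27 and BP03, 10 goblet markers summed to 394 and 648 CPM and 13 Paneth markers to 1310 and 2584 CPM, within the ranges of the hom stem libraries (152 to 1285 and 783 to 2592 CPM). 15 enteroendocrine markers summed to 2.54 to 26.7 CPM in hom stem libraries, against 7.82 and 7.73 CPM in the het stem libraries of BO27 and BP03, 6.47 CPM in BO58 and 322 CPM in BN44. The 7 of these markers tested between hom and het stem libraries were each lower in hom libraries (median log2 fold change -1.66), and 0 passed by edgeR. The part of these cell types in the member levels was not tested. The stem marker sum of BO27 was 37428 CPM, near the lower end of the hom range of 36033 to 53243 CPM. That of BP03 was 30958 CPM, below this range and the lowest of all stem libraries.

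In TA cells none of 29 members tested changed between hom and het TA libraries by edgeR, against 0% of 15925 genes, and 0 members had an unadjusted p below 0.05, where 5.92% of all genes did. DESeq2 called 0 members as well. Fabp2 had 435, 680, 887 and 664 CPM in hom TA libraries, against 390, 774, 850 and 781 CPM in het TA libraries. Prap1 had 195, 402, 554 and 513 CPM in hom TA libraries, against 218, 497, 543 and 467 CPM in het TA libraries. Within each genotype the first library, BN45 or BN44, was lowest in both genes, and the ranges of the genotypes overlapped.

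Sis had 184, 354, 230 and 238 CPM in hom TA libraries, against 83.5, 250, 364 and 543 CPM in het TA libraries. Dpp4 had 170, 174, 163 and 166 CPM in hom TA libraries, against 151, 162, 141 and 181 CPM in het TA libraries. Slc5a1 had 163, 197, 154 and 177 CPM in hom TA libraries, against 136, 153, 146 and 220 CPM in het TA libraries. For Sis the het libraries spread more widely than the hom ones, and for all 3 genes the ranges crossed. Ada had 28.2, 7.5, 16.4 and 22.1 CPM in hom TA libraries, against 24.1, 18.3, 18 and 26.4 CPM in het TA libraries. Mttp, which loads fat onto apolipoprotein B, was at 185 to 347 CPM in hom and 185 to 301 CPM in het TA libraries. The hom library of BO25 was the highest of its group for 20 of the 30 members, and the het library of BN44 the lowest of its group for 20. The shares of all genes highest or lowest in these libraries were not computed.

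In the Paneth fraction, none of the 30 members changed between hom and het libraries by edgeR, against 0% of 16108 genes, and DESeq2 called 0 members too. 3 members had an unadjusted p below 0.05, where 2.28% of all genes did: Apoa1, Apoa4 and Lct, each higher in hom libraries. Apoa1 had 8.19, 176, 483 and 19.4 CPM in hom Paneth libraries, against 1.17, 37.9, 47 and 17.4 CPM in het Paneth libraries. BO25 and BO57 were above every het library and BN45 and BP04 were not, and the log2 fold change was 2.78 ± 1.08 (SE, edgeR adjusted p = 1). Apoa4 was at 39.4 CPM in the hom Paneth library of BO57, against at most 4.14 CPM in the other 3 hom libraries and 0.0926 to 1.63 CPM in het Paneth libraries. Without the filter on low counts edgeR called Apoa1 higher in hom libraries (adjusted p = 0.0025), against 0.0195% of all genes.

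Fabp2 had 46.5, 223, 600 and 158 CPM in hom Paneth libraries, against 60.9, 173, 146 and 294 CPM in het Paneth libraries. Sis had 25.3, 197, 144 and 79 CPM in hom Paneth libraries, against 32.8, 265, 350 and 183 CPM in het Paneth libraries. Dpp4 had 21.8, 88.4, 124 and 64.4 CPM in hom Paneth libraries, against 37.9, 63.9, 153 and 60.7 CPM in het Paneth libraries. Within each genotype BN45 or BN44 was lowest in all 3 genes, and the genotypes overlapped. Slc5a1 had 15.3, 76.1, 88.1 and 88.9 CPM in hom Paneth libraries, against 34, 104, 95.2 and 70.4 CPM in het Paneth libraries. Prap1 had 23.4, 75.2, 130 and 82.3 CPM in hom Paneth libraries, against 32.6, 89.4, 63.7 and 99.6 CPM in het Paneth libraries. Ada had 2.17, 3.2, 11.1 and 2.89 CPM in hom Paneth libraries, against 5.03, 5.9, 8.57 and 5.62 CPM in het Paneth libraries. For Ada 3 hom libraries were below every het one and BO57 was above them.

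Over the 30 members, BN45 was the lowest hom Paneth library for 28 and BN44 the lowest het Paneth library for 27. The share of all genes lowest there was not computed, and this was not particular to the members. BN45 and BN44 were also lowest of their genotype in the sums of 15 stem markers (1913 and 3204 CPM) and 10 proliferation markers (192 and 352 CPM). Other lists differed, and the goblet sums of BN45 and BN44 were the highest of their genotype (8217 and 8288 CPM). These 2 libraries also had the highest Paneth marker sums of their genotype, 463377 and 357340 CPM. CPM is a share of all counts, Paneth transcripts included. With TMM scaling over the 24 libraries, the member sum of BN45 was 1510 instead of 685, and that of BN44 was 1367 instead of 898. The hom library of BO57 had the highest member sum, 3613 CPM, with the lowest Paneth marker sum of its group, 180509 CPM. The part of Paneth cell purity in these member levels was not tested. Without BN45 and BN44, a choice made after their values were seen, edgeR also called 0 members between the genotypes.

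**Figure D3:**
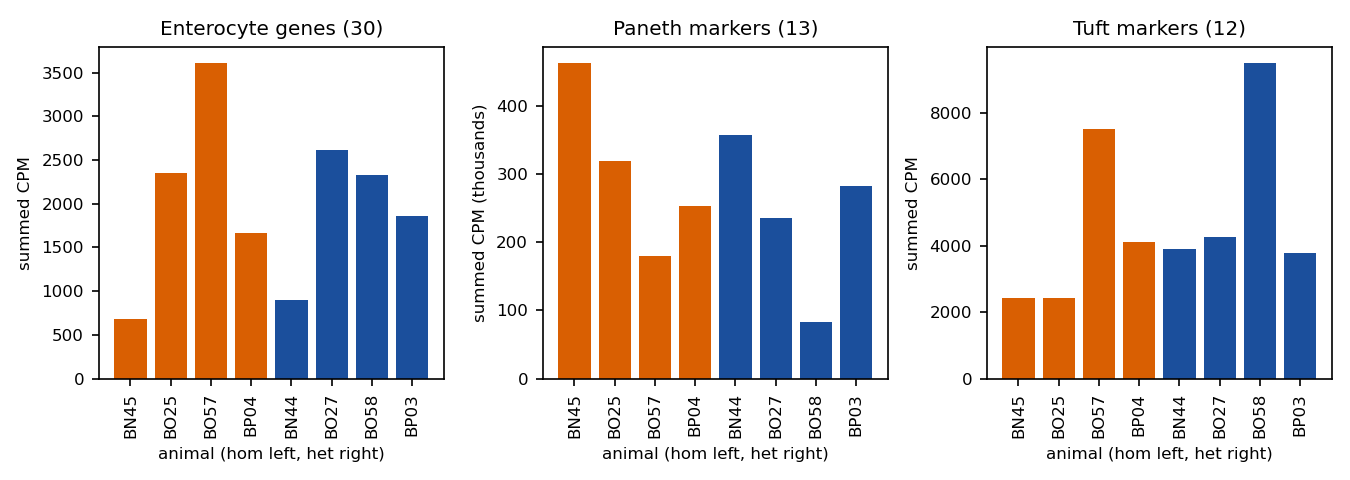
Summed CPM in the 8 Paneth libraries (bars; hom orange on the left, het blue on the right) of the 30 enterocyte genes, 13 Paneth markers and 12 tuft markers. BN45 and BN44 have the lowest enterocyte sums (685 and 898 CPM) and the highest Paneth marker sums of their genotypes, and BO57 and BO58 have the highest tuft sums (7498 and 9506 CPM).

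Whether the genotype effect differed between fractions was tested as an interaction over all 24 libraries. The genotype effect in stem minus that in TA libraries passed in 0 of 30 members and in 0% of 19396 genes by edgeR, and 6 members had an unadjusted p below 0.05, where 3.95% of all genes did; DESeq2 called 0 members. The genotype effect in stem minus that in Paneth libraries likewise passed in 0 of 30 members and 0% of genes, and 8 members had an unadjusted p below 0.05, where 6.28% of genes did. For Apoa1 the second difference was -5.91 ± 1.63 on the log2 scale (SE, edgeR adjusted p = 0.43), and DESeq2 called it and Apoa4 (adjusted p = 0.045 and 0.0088), against 0.247% of all genes. These interactions use the het stem libraries of BO27 and BP03: without them the members' median difference was -0.02 for stem minus TA, against -0.5 with them, and 0.06 for stem minus Paneth, against -0.97 with them.

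Fractions were then compared within each genotype, to see where along the crypt the genes are higher; the 3 comparisons share libraries, so their values are given side by side without a test of overlap. Between TA and stem libraries of hom animals, 13 of 28 members tested changed, 12 higher and 1 lower in TA, against 4.61% of 15954 genes (2.58% higher and 2.03% lower). Their median log2 fold change was 1.39, against -0.01 over all genes. In het animals 5 of 29 changed, 4 higher and 1 lower in TA, against 6.26% of 16182 genes (3.57% higher and 2.69% lower), with a median of 0.49 against -0.02. 4 members changed in the same direction in both genotypes, which is 31% of the hom and 80% of the het calls: Mttp, Enpep and Dgat1, the enzyme of the last step of triglyceride synthesis, were higher in TA, and Mep1a, the meprin alpha protease, was lower. With the animal as a block the het count was 8, adding Fabp2, Alpi and Krt20 (edgeR adjusted p = 0.0065, 0.033 and 0.032), against 11.4% of all genes. In hom animals the block gave 17, adding Lct, Mep1b, Cdhr5 and Prap1 (adjusted p = 0.027, 0.018, 0.028 and 0.0035 by edgeR), against 8.94% of all genes. Whether the genotypes differ in these effects is the interaction given above, which no member passed.

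Among the fat and vitamin A genes, the increase in TA was largest for Rbp2 in hom animals, with 46.9, 94.2, 143 and 110 CPM in hom TA libraries against 0.775, 3.33, 11.9 and 7.99 CPM in hom stem libraries (log2 fold change 4.02 ± 0.72 SE, edgeR adjusted p = 0.013). In het animals it had 26.1, 123, 123 and 214 CPM in TA libraries, against 2.04, 79.6, 8.02 and 81.9 CPM in stem libraries (1.53 ± 1 SE, edgeR adjusted p = 0.45). TA was above stem in each of the 8 animals, and the hom groups did not overlap. Fabp1 rose in hom TA libraries (196, 313, 256 and 293 CPM in TA, against 12.3, 8.45, 36.6 and 29.8 CPM in stem), with a log2 fold change of 3.57 ± 0.46 (SE, edgeR adjusted p = 0.0033). Mttp rose by 1.54 ± 0.21 in hom and 1.24 ± 0.2 in het animals on the log2 scale (SE, edgeR adjusted p = 0.0039 and 0.0066). Fabp2 rose by 1.47 ± 0.31 in hom animals (SE, edgeR adjusted p = 0.025), and Apoa1 and Apoc3 rose in hom animals too. Apob, the backbone protein of chylomicrons, did not pass in either genotype (13.6 to 34.7 CPM in hom TA and 11.3 to 34.6 CPM in hom stem libraries).

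Of the disaccharidases, Sis had a log2 fold change of 5 ± 0.62 in hom TA against hom stem libraries (SE, edgeR adjusted p = 0.0029) and 2.25 ± 1.12 in het animals (adjusted p = 0.3). Its 4 hom TA libraries, at 184 to 354 CPM, were all above the 4 hom stem libraries, at 1.63 to 16.3 CPM. Lct did not pass in either genotype without the animal as a block, and the trehalose-splitting Treh stayed at 0.948 to 6.14 CPM over the 8 TA libraries and 0.177 to 6.84 CPM over the 8 stem libraries. Among peptidases and the phosphatase, Enpep rose by 2.95 ± 0.38 in hom and 2.75 ± 0.62 in het animals (SE, edgeR adjusted p = 0.0032 and 0.03). Alpi had 19.6, 37.1, 30.1 and 38.4 CPM in hom TA libraries, against 0, 0.604, 2.82 and 3.13 CPM in hom stem libraries, the 0 being a count that allows up to 3 (edgeR adjusted p = 0.029).

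Mep1a went the other way, with 6.06, 15.7, 6.2 and 4.77 CPM in hom TA libraries against 18.8, 29.2, 19.5 and 21.7 CPM in hom stem libraries. In het animals it had 10.2, 9.37, 6.59 and 9.15 CPM in TA libraries, against 21, 23.8, 20.7 and 18.5 CPM in stem libraries. Stem was higher in each of the 8 animals, and the groups did not overlap in either genotype (log2 fold changes -1.49 ± 0.35 in hom and -1.22 ± 0.18 in het animals, SE, edgeR adjusted p = 0.042 and 0.0048). Its partner subunit Mep1b did not pass without the block (18.4 to 106 CPM in hom TA, against 11.3 to 35.9 CPM in hom stem libraries).

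Slc2a2 was the 1 transporter that passed in hom animals (2.6 to 12.9 CPM in TA, against 0.508 to 1.61 CPM in stem libraries, edgeR adjusted p = 0.025), and it was chosen for mention after its values were seen. Slc5a1 did not pass between TA and stem libraries, with log2 fold changes of -0.2 ± 0.15 in hom and -0.23 ± 0.2 in het animals (SE, edgeR adjusted p = 0.56 and 0.6). Among structural genes, Krt20 had 83.6, 124, 31.8 and 30.9 CPM in hom TA libraries, against 2.11, 1.23, 2.71 and 3.1 CPM in hom stem libraries (log2 fold change 4.82 ± 0.53 SE, edgeR adjusted p = 0.0017). In het animals it had 131, 98.7, 81.6 and 133 CPM in TA libraries, against 3.8, 22.8, 1.13 and 27.6 CPM in stem libraries (3.01 ± 0.81 SE, edgeR adjusted p = 0.058). TA exceeded stem in every animal. Cdhr5, a protocadherin of the links between microvilli, rose in het animals by 1.41 ± 0.21 (SE, edgeR adjusted p = 0.0048).

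**Figure D4:**
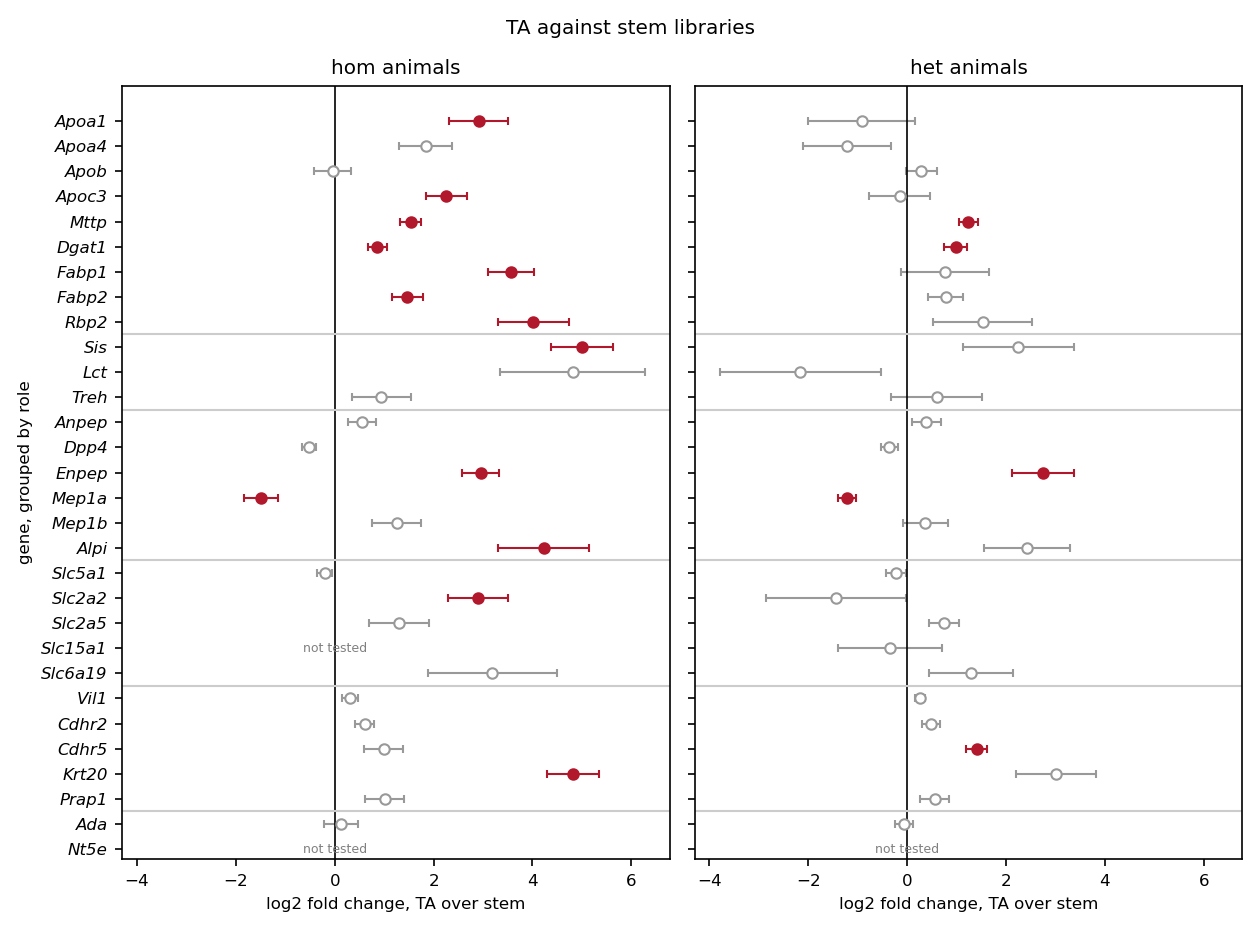
Log2 fold change of TA over stem libraries (horizontal axis, with SE bars) for each enterocyte gene, in hom animals on the left and het animals on the right. Filled red points passed edgeR at an adjusted p below 0.05, 13 in hom and 5 in het animals, and the het estimates of Apoa1, Lct and Slc2a2 have wide bars.

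The het count leaned on single animals: it was 1 without BO27, 2 without BO58, 3 without BP03 and 6 without BN44. The hom count was 6 without BO25, BO57 or BP04. Cdhr5 in het and Mttp, Fabp1, Sis, Enpep and Krt20 in hom animals passed whichever animal was left out. Leaving out the stem libraries of BO27 and BP03, a choice made after their values were seen, 7 members passed in het animals, against 2.43% of all genes, among them Sis (log2 fold change 6.24 ± 0.88 SE, edgeR adjusted p = 0.019) and Krt20 (5.51 ± 0.55, adjusted p = 0.0082), and the median was 1.33. In the same comparison all 10 goblet markers were higher in TA in each genotype, and their part in the member levels was not tested.

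Between Paneth and TA libraries, the peptide carrier Slc15a1, the amino acid carrier Slc6a19 and the brush border proteins Vil1, Cdhr2 and Cdhr5 were higher, and Mttp, Dgat1 and Prap1 were lower, in both genotypes by edgeR. Members of the same role did not all do so: Krt20 did not pass in either genotype, and of the fat route Fabp1 was higher in hom animals. In hom animals 11 of 29 members tested changed, 6 higher and 5 lower in Paneth libraries, against 28.5% of 16161 genes (16.3% higher and 12.2% lower). In het animals 11 of 30 changed, again 6 higher and 5 lower, against 29.2% of 16177 genes (17.4% higher and 11.8% lower). The share of members that changed was thus close to that of all genes. The 8 members named first changed in the same direction in both genotypes, 73% of either list.

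Slc6a19, the brush border carrier B0AT1 for neutral amino acids, had 8.86, 28.5, 62.1 and 19.6 CPM in hom Paneth libraries, against 3.62, 2.64, 0.563 and 1.74 CPM in hom TA libraries. In het animals it had 30.1, 46, 73 and 31.1 CPM in Paneth libraries, against 2.41, 7.53, 4.08 and 3.7 CPM in TA libraries. Every Paneth library was above every TA library, and the log2 fold changes were 4.32 ± 0.57 in hom and 3.78 ± 0.36 in het animals (SE, edgeR adjusted p = 7e-04 and 1e-04). In stem libraries Slc6a19 was at 0 to 0.814 CPM in hom and 0.106 to 5.05 CPM in het animals. Slc15a1, the peptide carrier PEPT1, was at 1.42 to 5.97 CPM in hom Paneth against 0.278 to 1.23 CPM in hom TA libraries, and at 3.64 to 10.5 CPM in het Paneth against 0.257 to 2.41 CPM in het TA libraries (edgeR adjusted p = 0.0048 and 0.008). The groups did not overlap in either genotype.

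Both intermicrovillar protocadherins rose in each genotype. Cdhr2 had 80.9, 152, 211 and 159 CPM in hom Paneth libraries, against 52.8, 62, 32.5 and 38.6 CPM in hom TA libraries, and 113, 186, 179 and 115 CPM in het Paneth libraries, against 37.1, 46.6, 28.3 and 32.7 CPM in het TA libraries. Cdhr5 had 82.6, 130, 194 and 97.9 CPM in hom Paneth libraries, against 30.7, 47, 22 and 11.4 CPM in hom TA libraries, and 91.4, 133, 133 and 101 CPM in het Paneth libraries, against 32.6, 26.7, 19.6 and 24.2 CPM in het TA libraries. Even the Paneth library of BN45, where most members were lowest, was above all TA libraries for both genes. The log2 fold changes were 2.34 ± 0.19 and 2.52 ± 0.21 for Cdhr2 and 2.87 ± 0.37 and 2.66 ± 0.2 for Cdhr5 in hom and het animals (SE, edgeR adjusted p = 6.9e-05, 4e-05, 0.00063 and 2.2e-05). Vil1 rose by 0.88 ± 0.16 in hom and 0.97 ± 0.16 in het animals on the log2 scale (SE, edgeR adjusted p = 0.0034 and 0.0017). On plain CPM, however, Vil1 was lower in Paneth than in TA libraries in BN45 (104 against 182 CPM) and in BO25 (179 against 191 CPM).

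Nt5e was at 0.155 to 7.95 CPM in hom Paneth and 2.4 to 32 CPM in het Paneth libraries, against at most 0.0357 CPM in hom TA and 0.667 CPM in het TA libraries. It passed in het animals (edgeR adjusted p = 0.0068) and was filtered out in hom animals. Its highest library, the het Paneth library of BO58, also had the highest tuft marker sum (9506 CPM) and the lowest Paneth marker sum (83505 CPM). Fabp1 rose in hom animals (log2 fold change 0.93 ± 0.22 SE, edgeR adjusted p = 0.013), but on plain CPM it was lower in Paneth (122) than in TA (196) in BN45.

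Among the members lower in Paneth libraries, Prap1 fell by 1.89 in hom and 2.09 in het animals on the log2 scale (SE 0.36 and 0.39, edgeR adjusted p = 0.0043 and 0.0035), with every Paneth library below every TA library. Dgat1 was at 21.4 to 61.8 CPM in hom Paneth against 123 to 215 CPM in hom TA libraries, and at 24.9 to 74.2 CPM in het Paneth against 156 to 206 CPM in het TA libraries. Its groups did not overlap either (edgeR adjusted p = 0.0018 and 0.00062). Mttp fell by 1.21 in hom and 0.84 in het animals (SE 0.27 and 0.28, edgeR adjusted p = 0.0085 and 0.045). Enpep and Alpi fell in hom animals, and Fabp2 and Ada in het animals. With the animal as a block, the hom count was 15, against 29.9% of all genes, with Anpep added as higher and Fabp2, Sis and Slc5a1 as lower. The het count with the block was 13, against 29.1% of all genes, with Anpep added as higher and Slc5a1 as lower.

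**Figure D5:**
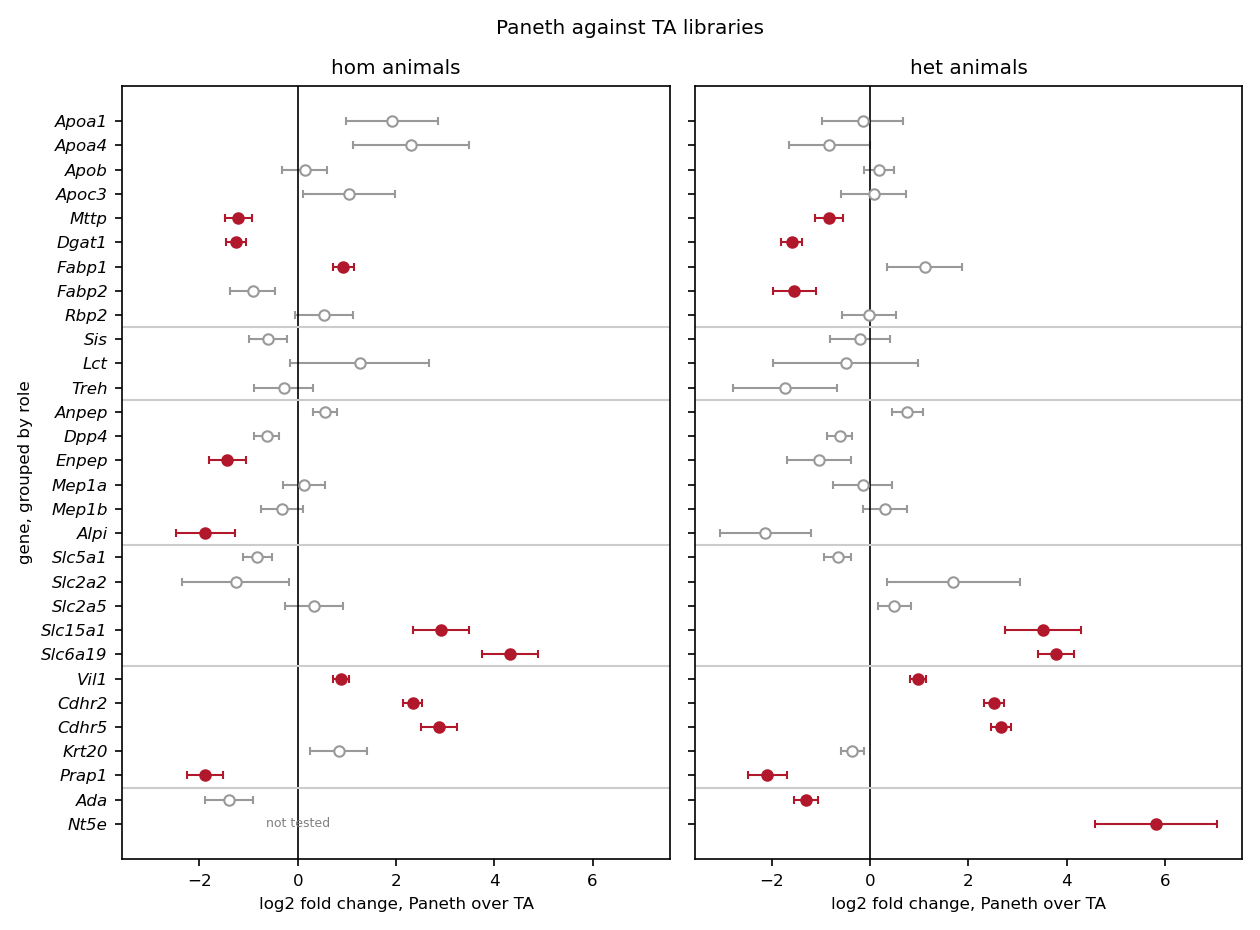
Log2 fold change of Paneth over TA libraries (horizontal axis, with SE bars) for each enterocyte gene, in hom animals on the left and het animals on the right, with filled red points for genes past an edgeR adjusted p of 0.05. Slc15a1, Slc6a19, Vil1, Cdhr2 and Cdhr5 lie right of 0 and Mttp, Dgat1 and Prap1 left of 0 in both panels.

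The Paneth fraction also held enteroendocrine and tuft transcripts. Against TA libraries, all 12 tuft markers passed as higher in Paneth libraries of each genotype, as did 10 of 14 enteroendocrine markers tested in hom and 9 of 15 in het animals. The tuft sum was 2414 to 9506 CPM over the 8 Paneth libraries and 1.18 to 38 CPM over the 8 TA libraries, where 1 tuft marker in hom and 3 in het animals had 0 counts in all 4 libraries. The enteroendocrine sum was 2906 to 11411 CPM in hom Paneth and 4482 to 11877 CPM in het Paneth libraries, against 69.7 to 511 CPM in hom TA and 21 to 662 CPM in het TA libraries. The part of these cell types in the levels of Slc6a19, Slc15a1, Cdhr2, Cdhr5, Vil1 and Nt5e was not tested.

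Between Paneth and stem libraries, 20 of 29 members changed in hom animals, 16 higher and 4 lower in Paneth libraries, against 30.5% of 16226 genes (17.4% higher and 13.2% lower). In het animals 13 of 30 changed, 9 higher and 4 lower, against 28.3% of 16230 genes (17.3% higher and 11% lower). 11 members changed in the same direction in both, 55% of the hom and 85% of the het calls. Anpep (aminopeptidase N), Slc2a5 (the fructose carrier GLUT5), Slc15a1, Slc6a19, Vil1, Cdhr2, Cdhr5 and Krt20 were higher in Paneth libraries, and Dpp4, Slc5a1 and Ada were lower. Slc5a1 fell by 1.03 in hom and 0.88 in het animals on the log2 scale (SE 0.31 and 0.27, edgeR adjusted p = 0.029 and 0.033). Dpp4 fell by 1.15 in hom and 0.98 in het animals (SE 0.27 and 0.28, edgeR adjusted p = 0.011 and 0.024), with no overlap between Paneth and stem libraries in either genotype. Ada fell by 1.27 and 1.37 (SE 0.38 and 0.23, edgeR adjusted p = 0.03 and 0.0018). With the animal as a block, 5 member calls over all fraction comparisons missed the threshold. Among them were Slc5a1 in hom animals and Slc2a5 in het animals between Paneth and stem libraries (edgeR adjusted p = 0.056 and 0.052). The het count was 7 without BN44 and 8 without BP03, in fits whose shares of all genes are not given here. It was 12 (11 higher and 1 lower) without the stem libraries of BO27 and BP03, where 12% of all genes passed.

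Other genes of the same pathways were read from lists that hold no members. Of 23 further fat absorption genes tested between TA and stem libraries, 6 were higher in hom animals, and 7 higher and 1 lower in het animals, where 2.58% and 3.57% of all genes were higher. They include Ces2e, an intestinal carboxylesterase (log2 fold change 2.03 ± 0.2 in hom and 1.88 ± 0.21 in het animals, SE, edgeR adjusted p = 0.0011 and 0.0017), and Tm6sf2, which acts in lipoprotein secretion (2.04 ± 0.21 and 1.94 ± 0.29, adjusted p = 0.0014 and 0.0049). Of 21 further transporters tested, 8 were higher in hom animals, and 9 higher and 2 lower in het animals, among them the bile acid exporter subunit Slc51a (3.51 ± 0.29 in hom and 2.72 ± 0.52 in het animals, SE, edgeR adjusted p = 0.00062 and 0.015). The median log2 fold change of these transporters was 1.26 in each genotype, against -0.01 in hom and -0.02 in het animals over all genes.

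Between Paneth and TA libraries, 4 of 9 further sugar and fructose genes tested fell and 1 rose in hom animals, and 4 of 8 fell in het animals, where 12.2% of all genes were lower in hom and 11.8% in het animals. Khk, ketohexokinase, fell by 1.41 in hom and 1.61 in het animals on the log2 scale (SE 0.24 and 0.28, edgeR adjusted p = 0.0027 and 0.0026). Further brush border structure genes were higher in Paneth libraries, 10 of 16 in hom and 8 of 16 in het animals with 0 lower, where 16.3% of all genes were higher in hom and 17.4% in het animals. Among them was the actin bundler Espn (46.5 ± 12.3 CPM in Paneth against 0.494 ± 0.174 CPM in TA libraries of hom animals, TMM-scaled, SD, n = 4, edgeR adjusted p = 5.9e-06). In hom against het animals, no gene of the fat, sugar, peptidase, transporter, brush border or transcription factor lists passed in any fraction by edgeR, and between 0 and 3 genes of a list had an unadjusted p below 0.05.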

How the data were processed

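Count values are whole fragments per gene as deposited. Per the file headers, the authors ran featureCounts 2.0.1 with Ensembl 98 gene models on mm10, without strand, on read pairs of mapping quality 1 or more. The submitters' processing notes name bcl2fastq 2.20.0, and per the labels' protocols cells were sorted with antibodies to CD24, EpCAM and CD45 and their cDNA was amplified by PCR. Without strand, reads of a gene and of an overlapping antisense gene cannot be told apart, and PCR copies were not marked as such. The 24 libraries held 24.73 to 47.05 M counts (median 31.72), and 92 spike-in rows with at most 6 counts per library were left out. 55154 of the 55421 gene identifiers had a symbol.

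Counts were tested with the quasi-likelihood F test of edgeR 4.0.16 (R 4.3.3), with TMM scaling, the tool's own filter on low counts and Benjamini-Hochberg adjustment over all genes tested. Standard errors are the size of the fold change divided by the root of F. Each fit used only the groups compared, except the interactions, which used all 24 libraries. Per-library levels are CPM over all counts, and per-kilobase levels use the exon length in the deposited table. Fits were checked on simulated data with a capped spread and no shared animals. That check does not cover groups as spread as the het stem libraries. Fractions of the same animal are paired, so the animal as a block was an alternative. Others were DESeq2 1.42.0, its size factors in edgeR, other filters and leaving out each animal. Leaving out the stem libraries of BO27 and BP03, or the Paneth libraries of BN45 and BN44, was chosen after seeing the data.

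The members and lists were chosen with earlier results of these data known. Every library's value is given for the member of each role with the highest level per kilobase (Fabp2, Sis, Dpp4, Slc5a1, Prap1 and Ada), and for others where a result turns on them, chosen after their values were seen. Promoter sequences are from RefSeq. Figures were drawn with matplotlib 3.10.9.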

Additional observations from a re-analysis of the deposited data

Results flagged for a closer look

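In groups of 4 libraries, the 30 members and their summed level gave 186 sets, and 17 of these, each a single member, had 1 library far from the other 3, its gap to the nearest, as a share of the group's range, being above Dixon's critical value. For independent, normally distributed values the rule would flag about 1 in 20 sets, or 9.3 of the 186. The members share libraries and CPM need not be normal, so the 17 cannot be read against the 9.3. No explanation was tested.

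The hom Paneth library of BO57 stood out upward for Apoa4 (39.4 CPM), Apoc3 (63.0 CPM) and Ada (11.1 CPM). This library had the lowest Paneth marker sum of its group. In the het Paneth group, BO27 was far above the others for Apoc3 (13.2 CPM) and for Slc2a2 (16.0 CPM), and BO58 for Nt5e (32.0 CPM).

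The hom TA library of BO25 was far above its group for Lct (16.4 CPM), Enpep (175.0 CPM) and Mep1a (15.7 CPM). In het TA libraries, BO27 stood above the others for Slc15a1 (2.41 CPM), and BN44 stood below them for Fabp2 (390.0 CPM).

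In hom stem libraries, BN45 stood out for Treh (2.83 CPM) and Slc2a5 (11.5 CPM), and BO25 for Slc6a19 (0.814 CPM) and Nt5e (0.158 CPM). In het stem libraries, BO27 was far above its group for Apob (29.4 CPM), and BO58 far below it for Dgat1 (50.7 CPM). The members high in both BO27 and BP03 are not among these, since a pair of high libraries leaves no single one apart.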

How the results depend on the processing

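Of 125 counts of members called under the alternatives, 113 equalled the main count or stayed within 1.5 times of it. The main count was 0 in every comparison of hom with het libraries and in the interactions. Many of the 113 are therefore a 0 that stayed 0, and the 113 does not measure how stable the called members are. Of single-gene results, 582 kept their call and 86 missed the threshold with the same direction, and 0 reversed. DESeq2 called 2 members between hom and het stem libraries and 2 in the stem minus Paneth difference of the genotype effect, where edgeR called 0. Without the filter on low counts edgeR called 1 between hom and het Paneth libraries. Leaving out 1 animal at a time gave 1 to 6 members for TA minus stem in het animals, 6 to 11 in hom animals, and 7 to 11 for Paneth minus stem in het animals. The cause was not tested; each such fit has fewer samples. With the animal as a replicate block, TA minus stem in het animals gave 8 members, and blocking by adjacent animal IDs gave 0 between hom and het in each fraction. Those IDs are not taken as pairs, since the correlation of deviations from the group means was 0.06 to 0.28 in stem, 0.08 to 0.3 in TA and 0 to 0.27 in Paneth libraries.

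Counts over all genes moved more. DESeq2 called 187, 70 and 6 genes between hom and het stem, TA and Paneth libraries, where edgeR called 2, 0 and 0, and 14 and 48 in the interactions, where edgeR called 0. For TA minus stem, DESeq2 called 1571 in hom and 1965 in het animals and the block 1427 and 1848, where edgeR without it called 736 and 1013. With TMM scaling over all 24 libraries the members' mean sum was 1250 instead of 1404 CPM in hom stem libraries and 2639 instead of 2078 CPM in hom Paneth libraries. Members near 0 counts are limited by depth, and a count of 0 allows up to 3.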

Other observations

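A search of all 55421 genes, made after the values were seen, found 9 genes that were at 5 CPM or more in both het stem libraries BO27 and BP03 and at least 4-fold above the highest of the other 6 stem libraries. 7 of the 9 were members (Apoa1, Apoa4, Fabp1, Krt20, Lct, Rbp2 and Sis). The other 2 were Cyp2b10, a cytochrome P450, with 18.7 CPM in BO27 and 7.7 CPM in BP03, against at most 0.935 CPM in the other stem libraries, and Spink1, a trypsin inhibitor, with 8.8 and 12.7 CPM, against at most 1.71 CPM. BO27 and BP03 were singled out because members were high in them. The 7 of 9 therefore does not measure how particular the pattern is to the set.

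Within animals, with TMM scaling over the 24 libraries, 14 members were higher in TA than in stem libraries in all 8 animals, and Mep1a was lower in all 8. The share of all genes that did so was not computed, so the 14 is not read as particular to the set. Villus-bottom genes, a list of enterocyte genes of early villus cells, had 5 of 10 members higher in TA than in stem libraries in each genotype by edgeR, and none lower, where 2.58% of all genes were higher in hom and 3.57% in het animals.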
